A study of Homo sapiens with 64 samples.

Results

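Chromatin positions recovered with antibodies against FoxM1, Mcm5, PCNA and γ-tubulin, 4 proteins in all, were set side by side in U2OS cells at a single time, 7 h after release from a double thymidine block. U2OS is an established human osteosarcoma line, and the block holds cells at the start of S phase, so that they pass through replication together once thymidine is removed. The members were the 4 peak lists that the labels give for U2OS at 7 h, with 244 of the 2442 peaks in all 24 lists of the series (9.99%). The labels name 2 samples for each antibody, 8 of the 64 samples of the series, and a single list covers both. All 8 were unmodified U2OS cells with the same block and release and no shRNA. They differed in the antibody, which was a mixture of rabbit polyclonals for γ-tubulin, a monoclonal for PCNA and a rabbit polyclonal each for Mcm5 and FoxM1. The other lists, from other times and from U2OS cells with an shRNA against TUBG (shTUBG U2OS), served to define regions and clusters of peaks and to look up positions called at 7 h.

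Chromatin immunoprecipitation followed by sequencing (ChIP-seq) marks the DNA that is recovered with a protein, and a peak is a stretch where reads are enriched. PCNA is the sliding clamp that holds DNA polymerases on the template, and Mcm5 is a subunit of the helicase that is loaded at replication origins and unwinds the DNA. FoxM1 is a transcription factor that drives genes of G2 and mitosis, and γ-tubulin, which nucleates microtubules at the centrosome, is also found in the nucleus. Satellite repeats fill the centromeres and their edges. Only a few copies of such repeats are present in a genome assembly, so reads from many copies collect at the same positions, and the same holds for ribosomal DNA. Nuclear copies of mitochondrial DNA are nearly alike in sequence to mitochondrial DNA, so reads of either may be placed there.

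The lists differed in length. FoxM1 had 123 peaks covering 65981 bp, γ-tubulin 75 covering 46819 bp, Mcm5 29 covering 24224 bp and PCNA 17 covering 7971 bp. Across the 24 lists of the series the number of peaks ran from 17 to 244, so PCNA at 7 h had the lowest. When the peaks of all 24 lists were merged into 387 regions, FoxM1 at 7 h had a peak in 80 of them (20.7%), γ-tubulin in 44 (11.4%), Mcm5 in 22 (5.68%) and PCNA in 1 (0.258%). These shares are the background against which the shared counts below are read. There was 1 list per antibody, so no value has a replicate error and no difference was tested. The lists hold no read numbers, so depth is unknown, and a list from fewer reads holds fewer peaks, so list length, depth and antibody cannot be told apart. Intervals are 95% intervals, exact Clopper-Pearson for shares and from order statistics for medians, and cover counting error only, since neighbouring peaks are not independent.

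The antibodies called different kinds of sequence. Every peak was placed in 1 of 4 classes, namely the mitochondrial genome, scaffolds, recurrent clusters on chromosomes and elsewhere on chromosomes. A cluster joined peaks of all lists within 100 kb, and it was recurrent when at least 10 of the 20 lists from other times or cells had a peak there, so the lists at 7 h did not choose it. All 17 PCNA peaks were mitochondrial (100%, interval 80.5 to 100), and for each other class, with 0 of 17, the exact interval reaches 19.5% (17.6% by the limit of 3 counts). Recurrent clusters on chromosomes held 54 γ-tubulin peaks (72.0% of the list, interval 60.4 to 81.8), 60 FoxM1 peaks (48.8%, 39.7 to 58) and 11 Mcm5 peaks (37.9%, 20.7 to 57.7). The order of the last 2 turned when 5 other lists were enough for a recurrent cluster, with 52.0% for FoxM1 and 65.5% for Mcm5, and the share of Mcm5 elsewhere was then 17.2%, beside 17.1% for FoxM1. The share elsewhere on chromosomes ran in another order. It was highest for Mcm5 with 13 peaks (44.8%, 26.4 to 64.3), followed by FoxM1 with 25 (20.3%, 13.6 to 28.5) and γ-tubulin with 4 (5.33%, 1.47 to 13.1). With PCNA left out, only the intervals of the Mcm5 and FoxM1 shares overlapped. The PCNA interval, up to 19.5%, overlapped those of FoxM1 and γ-tubulin. Scaffolds held 12 γ-tubulin peaks (16%) and 22 FoxM1 peaks (17.9%). Mcm5 had no scaffold peak, for which the exact interval reaches 11.9% of its list (10.3% by the limit of 3 counts).

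**Figure D1:**
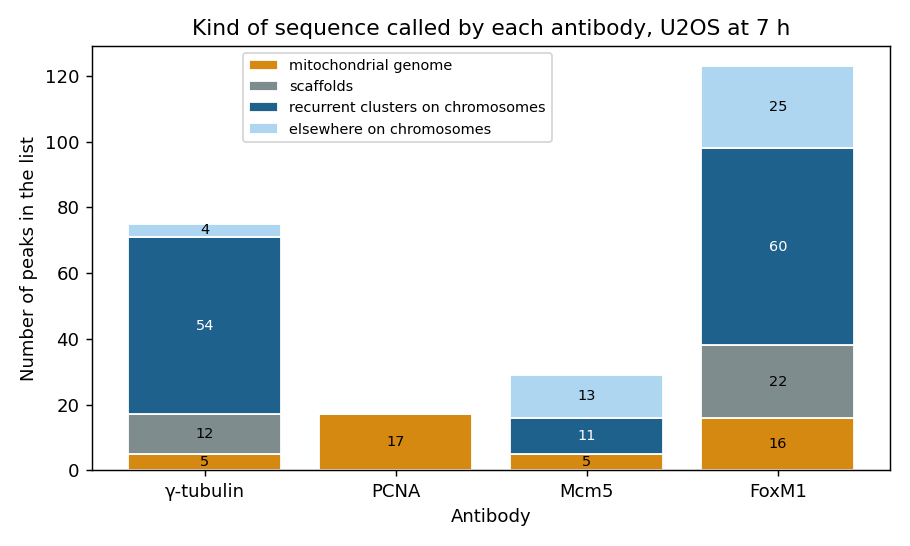
Stacked bars give the number of peaks of each antibody in U2OS at 7 h, with 1 list per antibody, divided by the kind of sequence on which the peak lies. The PCNA bar holds only its 17 mitochondrial peaks, most of the γ-tubulin bar is the 54 peaks in recurrent clusters, and the light section of 13 peaks elsewhere is the largest section of the Mcm5 bar.

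The mitochondrial genome was the sequence on which all 4 antibodies met. All 24 lists of the series had peaks there, so this was not particular to 7 h. Its 16571 bp were covered to 97.5% by 5 Mcm5 peaks, to 97.0% by 5 γ-tubulin peaks, to 75.7% by 16 FoxM1 peaks and to 48.1% by the 17 PCNA peaks. Mcm5 and γ-tubulin thus had few and long peaks there, and FoxM1 and PCNA many and short ones. The longest stretch between consecutive peaks was 93 bp for Mcm5, 166 bp for γ-tubulin, 679 bp for FoxM1 and 1237 bp for PCNA. All 4 antibodies covered 7316 bp (44.1%) together and 3 of them another 5877 bp (35.5%), while 232 bp (1.40%) were covered by none. Every base under a PCNA peak was also under a γ-tubulin peak and under an Mcm5 peak, and 91.8% of these bases were under a FoxM1 peak. The PCNA peaks reached from position 382 to 16525 with widths of 206 to 1338 bp and scores of 32 to 99. The score is a whole number that the authors give each peak, on a scale that was not stated, and it is compared here only within a list.

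The count of mitochondrial peaks that overlap depended on the rule. Peaks were taken to overlap where at least 25% of both was shared, the rule used in the study for these cells. Of the 17 PCNA peaks, 14 then overlapped a FoxM1 peak (82.4%, interval 56.6 to 96.2), 3 a γ-tubulin peak (17.6%, 3.80 to 43.4) and 2 an Mcm5 peak (11.8%, 1.46 to 36.4). With overlap by 1 bp all 17 overlapped each of the other antibodies. With 50% of both peaks, 9 overlapped FoxM1 and 0 overlapped γ-tubulin or Mcm5, since a short peak inside a long one covers little of it. With each list cut to its 17 peaks highest in score, 0% of PCNA peaks overlapped FoxM1 and 17.6% overlapped γ-tubulin. This cut left no mitochondrial FoxM1 peak, since the highest score of these was 143. The 0% was therefore fixed by the setting. Outside the mitochondrial genome PCNA had no peak and so no position in common with any antibody.

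On nuclear sequence most γ-tubulin positions were shared with FoxM1. Of 70 γ-tubulin peaks outside the mitochondrial genome, 53 overlapped a FoxM1 peak (75.7%, interval 64.0 to 85.2), and of 107 FoxM1 peaks, 53 overlapped a γ-tubulin peak (49.5%, 39.7 to 59.4). In bases, 83.6% of the nuclear γ-tubulin peaks lay under FoxM1 peaks and 48.1% of the nuclear FoxM1 peaks under γ-tubulin peaks. The 53 matched peaks were close to each other in place and extent, with a median distance of 19.5 bp between their centres and a median shared length of 80.8% of the stretch that the matched peaks span. Read against the background, 33 of the 44 merged regions with γ-tubulin also had FoxM1 (75%, 59.7 to 86.8), while FoxM1 was called in 20.7% of all 387 regions. In the other direction, 33 of the 80 FoxM1 regions (41.3%, 30.4 to 52.8) had γ-tubulin, which was called in 11.4% of all regions. The 33 include the mitochondrial region.

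Mcm5 had more positions in common with γ-tubulin than with FoxM1. Of its 24 nuclear peaks, 11 overlapped a γ-tubulin peak (45.8%, interval 25.6 to 67.2) and 3 a FoxM1 peak (12.5%, 2.66 to 32.4), and these intervals overlap. In bases, 41.9% of the nuclear Mcm5 peaks lay under γ-tubulin and 6.40% under FoxM1. Much of this sharing lay in the nuclear copy of mitochondrial DNA on chromosome 1. That copy held 7 of the 24 Mcm5 peaks, 6 γ-tubulin peaks and 1 FoxM1 peak. All 6 γ-tubulin peaks there overlapped an Mcm5 peak. Every Mcm5 peak there except that at 569919 to 570118 overlapped a γ-tubulin peak. The majority of the 11 Mcm5 peaks that overlapped γ-tubulin thus lay in this copy. The FoxM1 peak there also overlapped an Mcm5 peak. Shares without this copy were not computed. Of the 22 merged regions with Mcm5, the mitochondrial region included, 10 had γ-tubulin (45.5%, 24.4 to 67.8), above the 11.4% of all regions. Only 4 of the 22 had FoxM1 (18.2%, 5.19 to 40.3), and this interval holds the background of 20.7%. FoxM1, the longer list, had little of Mcm5, since 3 of its 107 nuclear peaks (2.80%, 0.582 to 7.98) overlapped an Mcm5 peak.

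**Figure D2:**
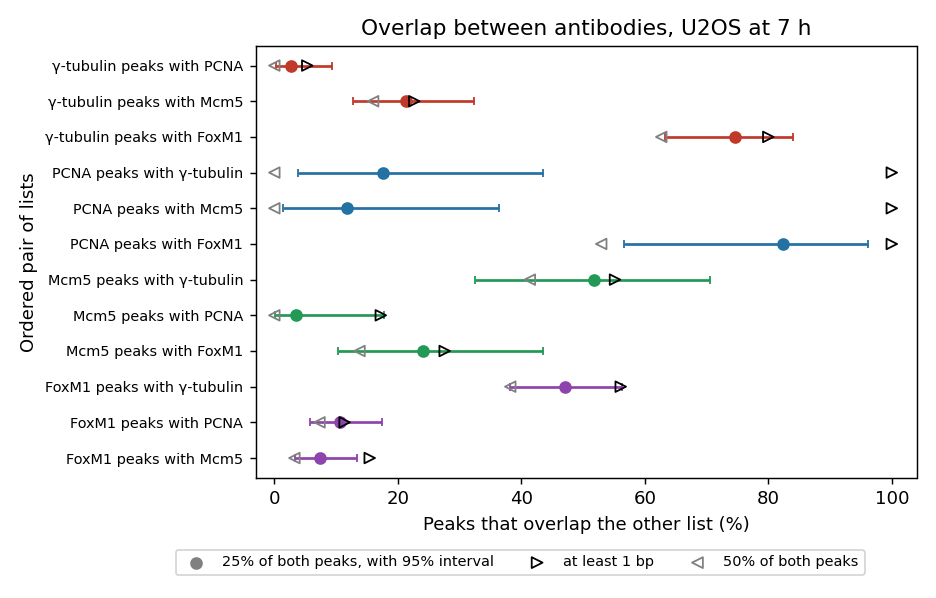
For each ordered pair of lists, filled points give the percentage of peaks of the first antibody that overlap a peak of the second by 25% of both peaks, with exact 95% intervals for counting error, and open triangles give overlap by 1 bp and by 50% of both peaks. γ-tubulin with FoxM1 lies at 74.7% over all 75 peaks, and the points for PCNA move from 0 to 100% between the rules with γ-tubulin and with Mcm5.

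When the peaks of the 4 lists alone were merged wherever they shared a base, 133 regions resulted. A single antibody called 66 of them (49.6%), 2 antibodies called 63 (47.4%), 3 called 1 and all 4 called 3. The 3 regions with all 4 antibodies were mitochondrial and lay at 141 to 2244, 2283 to 14597 and 14652 to 16571. The region with 3 antibodies was at 564751 to 565347 on chromosome 1, in a nuclear copy of mitochondrial DNA, with a score of 139 in the γ-tubulin list, 175 in the Mcm5 list and 106 in the FoxM1 list. Among regions with 2 antibodies, 51 had γ-tubulin and FoxM1, 10 had γ-tubulin and Mcm5 and 2 had Mcm5 and FoxM1. FoxM1 alone had 52 regions, Mcm5 alone 11, γ-tubulin alone 3 and PCNA alone 0. γ-tubulin had therefore almost no position of its own, and 4.41% of its 68 regions were called by it alone, compared with 40.7% of 27 regions for Mcm5 and 47.7% of 109 for FoxM1. FoxM1, the longest list, had a peak in 109 of all 133 regions, and these shares were not adjusted for list length.

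**Figure D3:**
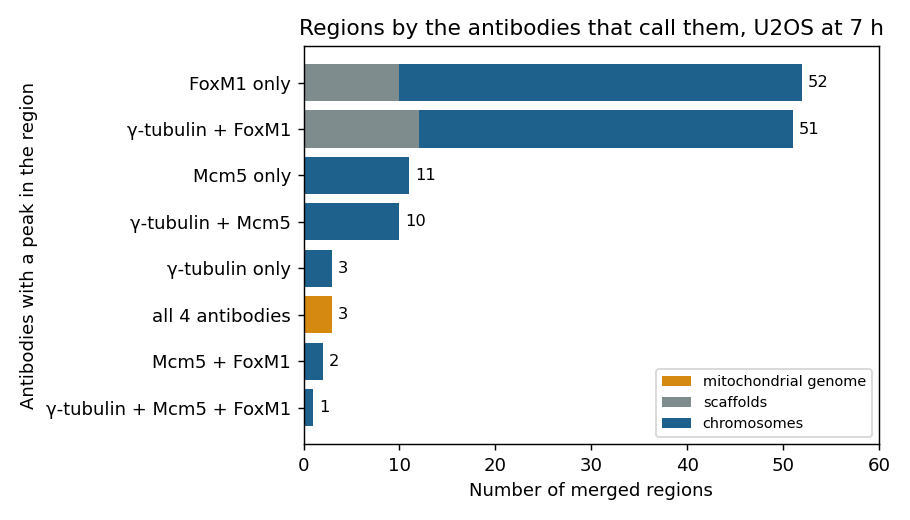
Bars give the number of the 133 merged regions in U2OS at 7 h by the set of antibodies with a peak in the region, coloured by mitochondrial genome, scaffolds and chromosomes. FoxM1 alone with 52 regions and γ-tubulin with FoxM1 with 51 are the longest bars, and the 3 regions with all 4 antibodies are mitochondrial.

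The satellite clusters at centromere edges were called by γ-tubulin and FoxM1 and by neither PCNA nor Mcm5. Of 172 clusters in the series 23 were recurrent, and 10 of these lie beside centromere gaps. γ-tubulin called 18 of the 23, FoxM1 20, Mcm5 4 and PCNA 1. Of the 10 centromere edges γ-tubulin called 9 with 40 peaks (53.3% of its list), and FoxM1 called 9 with 52 peaks (42.3%). PCNA and Mcm5 called 0 of the 10. The remaining 12 U2OS lists called 9 or 10 of them each, the PCNA and Mcm5 lists included, while the 8 shTUBG U2OS lists called from 0 to 10. The cluster that neither γ-tubulin nor FoxM1 called at 7 h was at 18517125 to 18520338 on chromosome 18, named here after its values were seen. Within the centromere edges 35 of 40 γ-tubulin peaks (87.5%) overlapped a FoxM1 peak and 35 of 52 FoxM1 peaks (67.3%) overlapped a γ-tubulin peak.

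The division of peaks between γ-tubulin and FoxM1 varied from centromere to centromere. In the cluster at 42360689 to 42409437 on chromosome 10, γ-tubulin had 16 peaks over 8566 bp and FoxM1 15 over 10503 bp, and 15 of the 16 γ-tubulin peaks overlapped FoxM1. The neighbouring cluster at 42527876 to 42600571 held 7 γ-tubulin and 6 FoxM1 peaks. In these places the lists were close to equal. On chromosome 16, at 46386368 to 46435571, γ-tubulin had 1 peak of 304 bp and FoxM1 10 peaks over 4796 bp. FoxM1 also had more peaks on chromosome 2 at 92268981 to 92326127, with 6 to 2, and on chromosome 7 at 61967165 to 61979460, with 5 to 2. The reverse was seen at 51579359 to 51591344 on chromosome 11, where γ-tubulin had 5 peaks over 1459 bp and FoxM1 3 over 683 bp. Clusters with equal numbers lay on chromosome 19 at 27731873 to 27740356 and on chromosome 6 at 58776238 to 58779615, with 3 peaks each, and on chromosome 1 at 121484009 to 121485488, with 1 each.

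**Figure D4:**
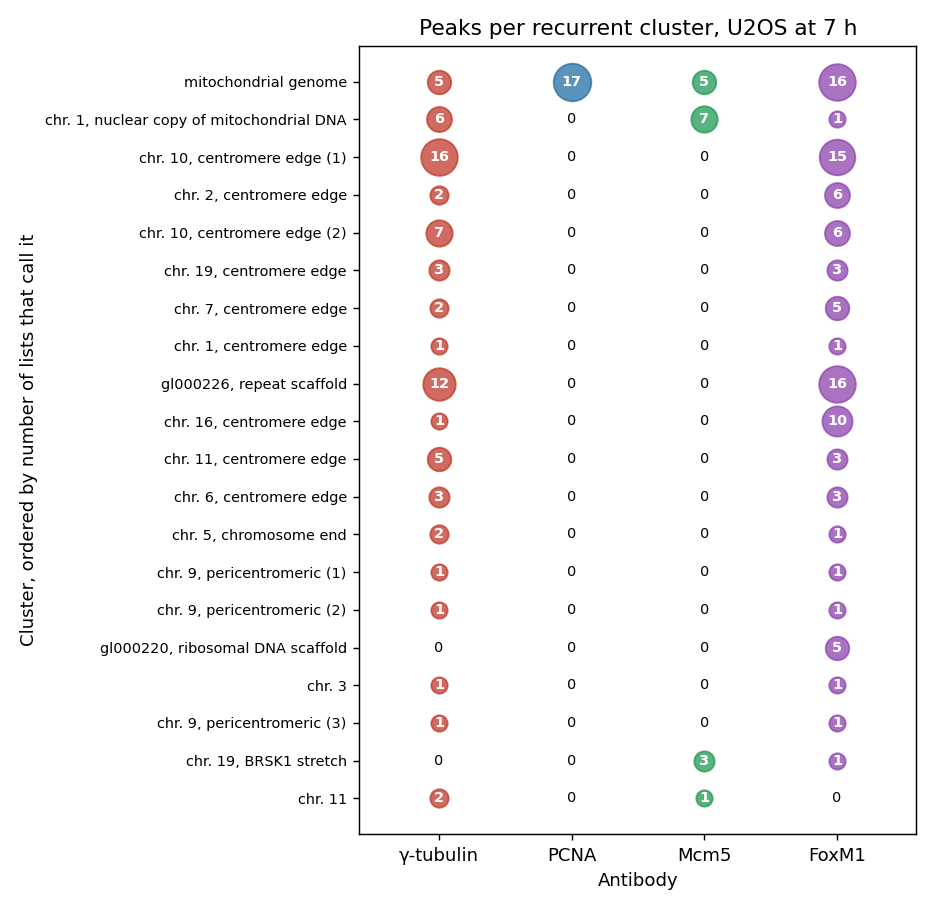
Circles give the number of peaks of each antibody at 7 h (columns) in the recurrent clusters named (rows, ordered by the number of lists that call them), with area growing with the number and a bare 0 where there is none. γ-tubulin and FoxM1 fill the rows of the centromere edges, with 16 and 15 peaks in the first cluster of chromosome 10, while the PCNA column holds only its 17 mitochondrial peaks.

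Outside the centromere edges γ-tubulin and FoxM1 shared some clusters and differed in others. On the repeat scaffold gl000226 γ-tubulin had 12 peaks and FoxM1 16, and all 12 γ-tubulin peaks overlapped FoxM1. On gl000220, the scaffold that carries ribosomal DNA, FoxM1 had 5 peaks over 6739 bp and the other antibodies had none at 7 h. The scaffold was not particular to FoxM1, since 15 other lists called it. Among the other U2OS lists without shRNA these were 3 of γ-tubulin, 3 of Mcm5, 3 of FoxM1 and 0 of PCNA. Small clusters on chromosome 9, at 66970993 to 66971513, 67320408 to 67320946 and 69710833 to 69711325, and on chromosome 3, at 196625509 to 196625890, held 1 γ-tubulin and 1 FoxM1 peak each. Near the end of chromosome 5, at 10027 to 11860, γ-tubulin had 2 peaks and FoxM1 1. In the nuclear copy of mitochondrial DNA at 564625 to 570258 on chromosome 1 the order turned, with 7 Mcm5 peaks, 6 of γ-tubulin, 1 of FoxM1 and 0 of PCNA. Reads from mitochondrial DNA and from this copy are nearly alike in sequence, and how the authors placed them was not stated.

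Positions shared by γ-tubulin and Mcm5 without FoxM1, which are given in full although they were chosen after their values were seen, numbered 10. In the nuclear mitochondrial copy on chromosome 1 there were 5, at 565626 to 565930, 566080 to 566612, 567247 to 567674, 567760 to 568193 and 569170 to 569616. Another 2 lay on chromosome 1, at 91852811 to 91853077 and at 236260336 to 236260676. The last 3 lay on chromosome 11 (10530752 to 10531252), chromosome 13 (110076394 to 110076750) and chromosome 17 (40766223 to 40766695). All 10 also had a peak in lists from other times or cells. The 4 γ-tubulin peaks that lay elsewhere on chromosomes were all in this set, so each of them was shared with Mcm5. The position with the highest Mcm5 score among the 10 was 236260336 to 236260676 on chromosome 1, with 211 in the Mcm5 list and 77 in the γ-tubulin list.

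Mcm5 peaks gathered at the γ-tubulin genes, a stretch named here after its values were seen. The stretch at 40762298 to 40818599 on chromosome 17, around TUBG1 and TUBG2, which encode γ-tubulin, held 5 Mcm5 peaks, 1 γ-tubulin peak and no PCNA or FoxM1 peak. The Mcm5 peaks were at 40762298 to 40762557, 40765876 to 40766085, 40766223 to 40766695, 40766756 to 40767019 and 40818047 to 40818552, and that at 40766223 was the one shared with γ-tubulin, where the scores were 133 for Mcm5 and 73 for γ-tubulin. This stretch was not among the recurrent clusters. It was called in 7 other lists, and among the other U2OS lists without shRNA in 1 each of γ-tubulin, Mcm5 and FoxM1 and 0 of PCNA. A second gathering lay at 55795727 to 55814326 on chromosome 19, around BRSK1, a protein kinase gene, with 3 Mcm5 peaks, 1 FoxM1 peak and no γ-tubulin or PCNA peak. This recurrent cluster was called in 11 other lists. Among the other U2OS lists without shRNA these were 3 of Mcm5, 2 of γ-tubulin, 2 of FoxM1 and 0 of PCNA. The position shared by Mcm5 and FoxM1 there was 55795743 to 55796010. Their other shared position, 43958432 to 43958847 on chromosome 7, was in no other list, and both were named after their values were seen.

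Regions with a single antibody at 7 h were looked up in the 20 lists from other times or cells. All 3 γ-tubulin regions were called there for other antibodies too, and all lay in centromere edges, with scores of 133 at 51582709 to 51583035 and 99 at 51590925 to 51591221 on chromosome 11, and of 54 at 42541555 to 42541792 on chromosome 10. Of the 11 Mcm5 regions, 5 were called for another antibody elsewhere, 2 for Mcm5 only and 4 in no other list. Among the 5 with the highest scores, chromosome 19 had 55814023 to 55814291 with a score of 158 and 55800850 to 55801053 with 96, both in the stretch around BRSK1. Chromosome 17 had 40766756 to 40767019 with 125, at the γ-tubulin genes. The remaining ones were 43959043 to 43959454 on chromosome 7 with 110 and, on chromosome 5, 177952200 to 177952531 with 73. Those at 55800850 and 177952200 were in no other list.

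FoxM1 had the most regions of its own, and they fell into different kinds. Of the 52, 10 were on scaffolds, 18 in recurrent clusters and 24 elsewhere on chromosomes. Another antibody had a peak at 27 of them in another list, FoxM1 only at 6, and 19 were in no other list, of which 17 lay elsewhere on chromosomes. The 19 were narrow, with a median width of 247 bp and a range of 200 to 450 bp, and low in the list, with a median score of 50. They lay on 12 chromosomes, with 2 on a scaffold. The 6 found again only with FoxM1 had a median score of 169. These included the wide peaks on the ribosomal DNA scaffold gl000220 at 131205 to 133626, with a score of 194, and at 126723 to 129269, with a score of 180, each called in 3 other lists, all of FoxM1. Another wide peak at 135556 to 136869 on gl000220, with a score of 171, was called elsewhere for γ-tubulin as well. The remaining regions of the 5 highest in score were at 34341 to 34561 on gl000199 (180) and at 20227 to 20527 on chromosome 7 (170).

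Peaks called by a single antibody were narrower and lower than shared ones for FoxM1 and Mcm5. The median width was 282.5 bp for the 52 FoxM1 peaks and 469 bp for its 71 shared peaks, with median scores of 57 and 108. For Mcm5 it was 264 bp for 11 peaks and 420.5 bp for 18, with scores of 71 and 129. γ-tubulin had 297 bp for 3 peaks and 348 bp for 72, with scores of 99 and 92.5. With the mitochondrial peaks left out, which are long and all shared, the shared peaks had a median width of 444 bp for FoxM1 (55 peaks), 374 bp for Mcm5 (13 peaks) and 340 bp for γ-tubulin (67 peaks). Their median scores were 107, 122 and 91 in the same order. A wide peak can more easily share a base with another list, so the rule for sharing itself favours wide peaks.

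The widths of the lists as wholes were alike at the middle and differed at the top. The median width was 340 bp for γ-tubulin (interval 304 to 454), 367 bp for PCNA (319 to 512), 361 bp for Mcm5 (267 to 473) and 355 bp for FoxM1 (337 to 421), so that each median lay within the intervals of the others. The narrowest peak was 203, 206, 200 and 200 bp in the same order. The widest was mitochondrial in every list, with 7640 bp at 2327 to 9966 for γ-tubulin, 1338 bp at 10985 to 12322 for PCNA, 6178 bp at 8398 to 14575 for Mcm5 and 3847 bp at 10621 to 14467 for FoxM1. On nuclear sequence the widest γ-tubulin peak had 1553 bp and the widest Mcm5 peak 533 bp, while FoxM1 reached 2547 bp. Peaks wider than 1000 bp numbered 5 of 70 for γ-tubulin, 0 of 24 for Mcm5 and 12 of 107 for FoxM1 there.

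**Figure D5:**
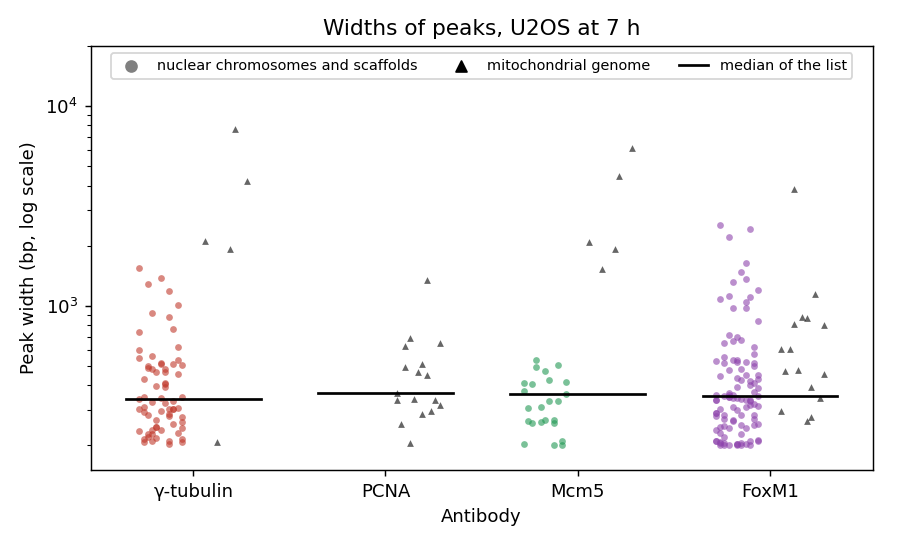
Each symbol is the width of a peak in bp on a log axis for the antibody below it in U2OS at 7 h, with circles for nuclear chromosomes and scaffolds, triangles for the mitochondrial genome and a line at the median of the list. The medians lie between 340 and 367 bp, the widest symbol of every list is a triangle, and the nuclear Mcm5 circles end at 533 bp.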

How the data were processed

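ChIP-seq used chromatin digested with micrococcal nuclease, prepared as paired-end libraries. Per the labels and the submitters' processing notes, the authors used Bowtie2 2.1.0, SAMtools, MACS2 (version not in these notes) and the human build hg19. The deposited lists give each peak's chromosome, start, end and a score, a whole number from the authors whose scale was not stated. How both samples and the input were combined, and how duplicate and repeat reads were treated, are not given in the sources used here. Coordinates are printed counted from 1. Inputs and read numbers were not analysed here, and no hg19 sequence or annotation was used, so exons, introns and UTRs are not assigned. The names of centromere edges, scaffolds, the mitochondrial copy and the gene stretches rest on general knowledge of hg19.

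Peaks were compared by position with Python 3.11.15, numpy 2.4.6 and scipy 1.17.1, checked on simulated lists, and figures were drawn with matplotlib 3.10.9. Named positions were regions of 3 or more antibodies, up to 5 single-antibody nuclear regions per antibody by score, up to 20 recurrent clusters by number of lists, and the widest peak of each list. Others are marked as chosen after their values were seen. The lists, rules and comparisons were chosen with earlier results of these data known. Alternatives are given in the closing section.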

Additional observations from a re-analysis of the deposited data

How the results depend on the processing

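With 45 values and 243 alternative settings, 188 recomputed values stayed within the counting interval (percentages and medians) or within 1.5 times (counts) of the reported value and 55 moved further. Shares and counts have no sign to turn, but the order of antibodies turned for FoxM1 and Mcm5 in recurrent clusters, as given with those results. It also turned for PCNA with FoxM1 and γ-tubulin, where the cut by score left no mitochondrial FoxM1 peak. Further turns included the mitochondrial share, where γ-tubulin passed FoxM1 when base pairs were counted and when peaks were merged. With peaks merged, γ-tubulin also passed FoxM1 in the scaffold share. At or above the median score the order of the median widths was reversed. With overlap by 1 bp, FoxM1 peaks overlapped Mcm5 more often than PCNA, the reverse of the reported order. The cause was not tested except where the setting itself fixes it. No paired analysis was possible because 1 list covers both samples of each antibody. For PCNA no value was possible without mitochondrial peaks or on chromosomes 1 to 22 and X, where it has no peak. Depth, unknown here, limits every count.

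With overlap by 1 bp, PCNA peaks overlapped γ-tubulin, Mcm5 and FoxM1 to 100% each, and FoxM1 peaks overlapped Mcm5 to 15.4%. With 50% of both peaks, the overlap was 0% for γ-tubulin with PCNA, PCNA with γ-tubulin, PCNA with Mcm5 and Mcm5 with PCNA, 62.7% for γ-tubulin with FoxM1, 52.9% for PCNA with FoxM1 and 3.25% for FoxM1 with Mcm5. With lists cut to the 17 peaks highest in score, the overlap was 11.8% for γ-tubulin with PCNA, 52.9% for γ-tubulin with FoxM1 and 23.5% for Mcm5 with γ-tubulin, and 0% for PCNA with FoxM1, Mcm5 with FoxM1, FoxM1 with PCNA and FoxM1 with Mcm5. The cut left no mitochondrial FoxM1 peak, so the 0% between PCNA and FoxM1 was fixed by it. With peaks within 1000 bp merged the overlap was 20% for PCNA with FoxM1, 34.8% for FoxM1 with γ-tubulin, 1.45% for FoxM1 with PCNA and 2.90% for FoxM1 with Mcm5. Without mitochondrial peaks FoxM1 overlapped Mcm5 to 2.80%, and among peaks at or above the median score PCNA overlapped FoxM1 to 55.6%.

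Regions of Mcm5 alone numbered 7 when merged within 1000 bp, 3 within 100 kb and 6 at or above the median score. Regions of FoxM1 alone numbered 27 within 100 kb and 24 at or above the median score, and of γ-tubulin alone 0 within 100 kb. Regions of 2 or more antibodies, 67 as reported, numbered 33 within 1000 bp, 24 within 100 kb and 33 at or above the median score.

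Counted in base pairs, the mitochondrial share was 34.3% for γ-tubulin and 66.7% for Mcm5, the share in recurrent clusters on chromosomes 54.0% and 15.9%, and the share elsewhere 17.5% for Mcm5 and 10.5% for FoxM1. At or above the median score, γ-tubulin had 0% on scaffolds and 86.8% in recurrent clusters on chromosomes, and FoxM1 had 11.1% on scaffolds, 60.3% in recurrent clusters and 11.1% elsewhere. With peaks merged, FoxM1 had 1.45% on the mitochondrial genome and 36.2% elsewhere. With clusters counted as recurrent in 5 other lists, γ-tubulin had 0% elsewhere, and Mcm5 had 65.5% in recurrent clusters and 17.2% elsewhere. Recurrent clusters called by Mcm5 then numbered 8 of 41, and 2 of 16 when 15 lists were required, while γ-tubulin peaks at or above the median score called 10 of 23. The median width was 499 bp for γ-tubulin and 482 bp for FoxM1 at or above the median score, and 1833 bp for PCNA with peaks merged.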
